A study of Mus musculus with 4 samples.

Results

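Axon guidance genes were examined in cardiac progenitor cells (CPCs) derived from mouse embryonic stem cells. The set comprised 68 of the 20701 gene symbols in the deposited transcript table, chosen by symbol alone: semaphorins of classes 3 to 7 (Sema), their receptors the plexins (Plxn) and neuropilins (Nrp), Slits and their Robo receptors, netrins (Ntn) with the receptors Unc5 and Dcc, and the Eph receptors (Eph) with their ephrin ligands (Efn). Of these, 35 encode ligands and 33 encode receptors. For each symbol the transcript entry with the highest summed count was used.

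All 4 RNA-Seq libraries came from the E14 Tg(Nkx2-5-EmGFP) line, which carries a green fluorescent reporter of the cardiac factor gene Nkx2-5, and all were made from reporter-positive cells sorted at day 5 of differentiation. Control clones are given no Isl1 mutation in the labels, and Isl1_KO clones were Isl1-/-, made by CRISPR/Cas9 targeting. Each group had 2 libraries, each from a different clone per the study's methods, so p-values rest on the spread within each pair. Far more genes passed in the fits below where the control pair alone set the spread, so that pair varied little. The p-values are therefore no measure of variation between clones in general. The series' design text speaks of a knockdown, while the titles and the genotype label give a knockout, and the labels were followed.

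Guidance cues are secreted or membrane-bound proteins that steer cells and growing axons by attraction or repulsion. Class 3 semaphorins are secreted and act through neuropilin and plexin complexes, whereas classes 4 to 7 are mostly membrane-bound and bind plexins directly. Slits bind Robo receptors, netrins bind Dcc and Unc5 receptors, and ephrins signal through Eph receptor tyrosine kinases at contacts between cells, often in both directions. In the developing heart and vessels these families are known for roles in outflow tract septation, vessel patterning, cardiac neural crest migration and chamber morphogenesis.

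The libraries held between 8821536 and 13186103 counts over 1 entry per gene. Isl1, the targeted gene, was at 35.1 and 35.7 CPM (counts scaled to a common library size) in control and at 1.31 and 2.08 CPM in Isl1_KO, for which edgeR estimated a log2 fold change of -4.39 (SE 0.213, adjusted p 0.00276). All 8 cardiomyocyte markers examined fell, and their summed level was 1620 and 1703 CPM in control against 58.3 and 46.6 CPM in Isl1_KO. Nkx2-5 was at 21.1 and 19.8 CPM in control and at 4.77 and 4.34 CPM in Isl1_KO. Of the 8 cardiac progenitor markers, which include Isl1 and Nkx2-5, edgeR called 5 lower and 0 higher. Their log2 fold changes were below 0 in 7 and above 0 in 1, Fgf10 (0.83). The summed cardiac progenitor markers were at 751 and 765 CPM in control and at 356 and 397 CPM in Isl1_KO. Because the samples are bulk RNA, fewer cells of a type and less RNA per cell cannot be told apart for any gene here. Of the lists for other cell types, edgeR called 0 of the 8 endothelial, 4 neural, 3 neural crest, 7 endoderm, 5 pluripotency and 7 fibroblast markers tested, and 1 of 7 blood markers (Runx1) as higher. DESeq2 at an adjusted p of 0.05 called 1 endothelial marker (Tek) and 1 fibroblast marker (Dcn) lower and 2 blood markers (Tal1 and Runx1) higher. At the study's criteria, described below, 5 endothelial, 3 fibroblast, 1 neural and 1 neural crest marker were lower and 3 blood markers were higher. The summed endothelial markers were at 385 CPM in both control libraries and at 339 and 374 CPM in Isl1_KO. Most of this sum was Kdr, at 217 and 214 CPM in control and 186 and 278 CPM in Isl1_KO. The median log2 fold change of the 8 endothelial markers was -0.83, with 6 below 0 and 2 above. The summed fibroblast markers, mostly collagen and Postn transcripts, were at 2151 and 2104 CPM in control and at 1361 and 498 CPM in Isl1_KO replicates 1 and 2. The 4 Y-linked genes examined summed to 65.7 and 62.2 CPM in control and to 0.0769 and 0.0868 CPM in Isl1_KO, so a difference in Y-linked transcripts and the genotype cannot be told apart in these clones. The part of these marker differences in the values below was not tested.

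The question was which ligands and receptors of these families differed between Isl1_KO and control CPCs. Of the 68 genes, 57 passed the filter on low counts and were tested with edgeR's quasi-likelihood test, adjusted over all 12715 genes. The Eph receptor genes Ephb1 and Epha7 and the semaphorin gene Sema6d fell in Isl1_KO, by 6.71-fold, 3.79-fold and 1.99-fold. Fold changes are ratios of fitted levels. No guidance gene was called higher by edgeR, and DESeq2 at an adjusted p of 0.05 called 6 lower (adding Sema5b, Robo2 and Efnb3) and none higher. These 6 were 10.3% of the 58 guidance genes to which DESeq2 gave an adjusted p, beside 4.67% of all such genes (3.34% lower and 1.33% higher). The 3 edgeR calls were 5.26% of the tested guidance genes, beside 2.45% of all tested genes (1.94% lower and 0.511% higher). At an unadjusted p under 0.05, 20 guidance genes were lower (35.1%, against 12.2% of all tested genes) and 2 were higher (3.51%, against 11.0%).

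**Figure D1:**
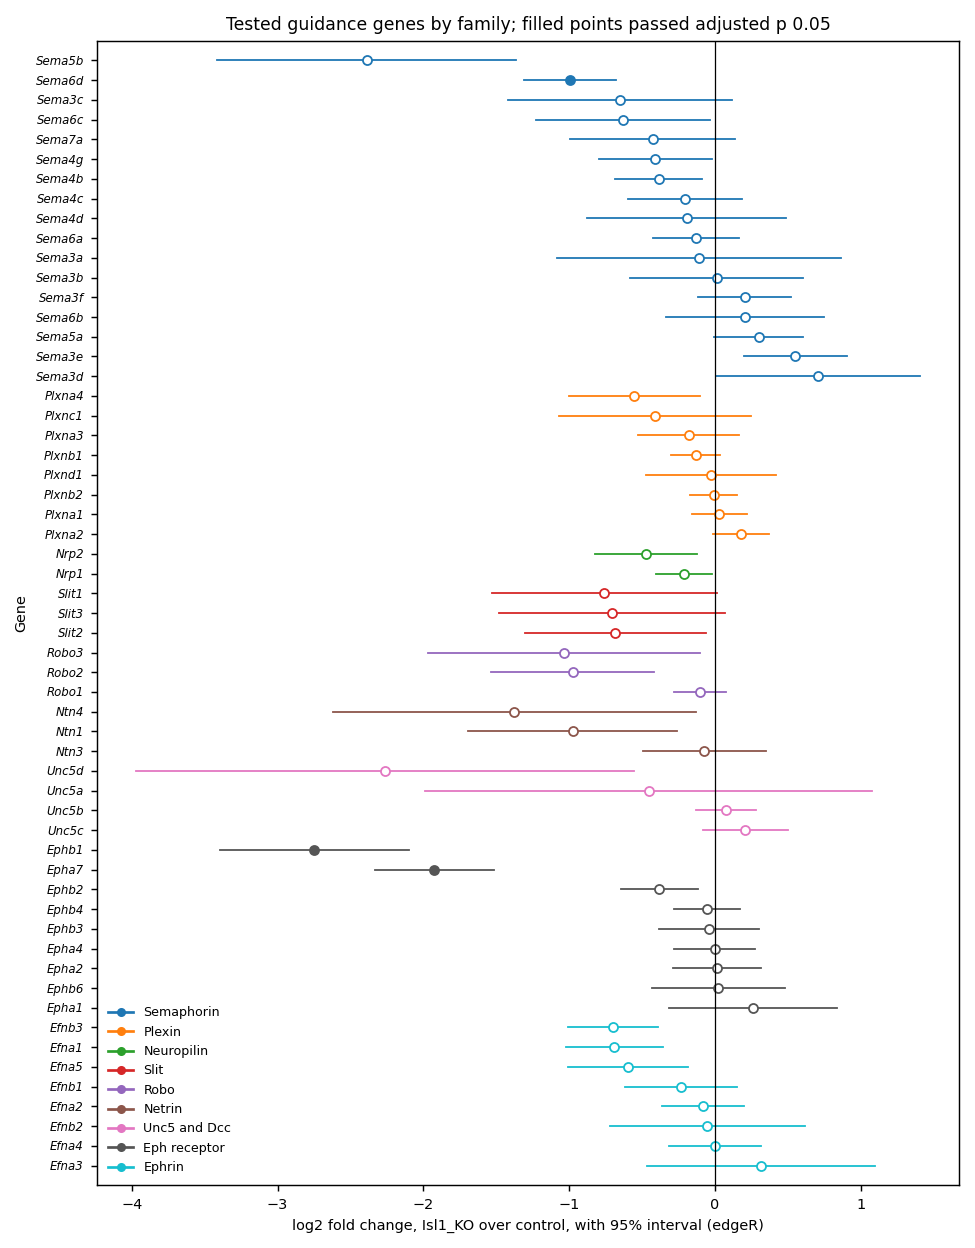
log2 fold change (Isl1_KO over control) on the x axis for each of the 57 tested guidance genes, by family, with its 95% interval from the edgeR fit. The 3 filled points, Sema6d, Ephb1 and Epha7, passed an adjusted p of 0.05, and the points of Sema3d and Sema3e have intervals above 0.

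Among Eph receptors, Ephb1 showed the largest difference. Ephb1 encodes an EphB receptor that binds ephrin-B ligands (chromosome 9, 101824458 to 102257023, minus strand, mm9). Control replicates 1 and 2 contributed 92 and 95 counts, and the deeper Isl1_KO libraries 24 and 14. Scaled by library size, the control mean was 10.4 ± 0.0342 CPM and the Isl1_KO mean 1.53 ± 0.446 CPM (SD, n = 2 each). Both Isl1_KO libraries lay far below both control libraries (edgeR log2 fold change -2.75, SE 0.255, adjusted p 0.0144).

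Epha7 encodes an EphA receptor that binds ephrin-A ligands and also occurs as truncated forms that lack the kinase domain (chromosome 4, 28740281 to 28894649, plus strand). Its counts were 296 and 301 in control and 129 and 87 in Isl1_KO. Mean levels were 33.3 ± 0.470 CPM for control and 8.73 ± 1.67 CPM for Isl1_KO (SD, n = 2 each), with no overlap between the groups. In edgeR this was a difference of -1.92 on the log2 scale (SE 0.162, adjusted p 0.0108). The gene had 3 transcript entries, of 3260, 6719 and 6731 bases, and when all entries were tested their log2 fold changes lay between -1.94 and -1.92. These entries share reads, so they are not separate evidence, but the short entry moved with the long ones.

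Sema6d encodes a transmembrane semaphorin for which plexin-A1 is a known receptor (chromosome 2, 123915705 to 124493506, plus strand). Its counts were 242 and 240 in control and 166 and 164 in Isl1_KO. Control averaged 26.9 ± 0.855 CPM and Isl1_KO 13.5 ± 1.04 CPM (SD, n = 2 each), and the Isl1_KO libraries were close to each other and below control. Fitted by edgeR, the log2 fold change came to -0.99 (SE 0.123, adjusted p 0.0314). All 7 transcript entries of Sema6d passed when entries were tested separately, the smallest difference being -0.97 on the log2 scale. The 7 entries also share reads and are not separate evidence. Plxna1 itself was at 228 and 228 CPM in control and at 244 and 222 CPM in Isl1_KO, with a log2 fold change of 0.03 (95% interval -0.16 to 0.22).

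The 3 calls depended on how the spread was estimated. With control replicate 1 left out, the adjusted p of Ephb1, Epha7 and Sema6d was 0.193, 0.154 and 0.419, and without control replicate 2 it was 0.163, 0.120 and 0.349, so that 0 guidance genes were called in either case. In these fits the log2 fold changes were -2.75 in both for Ephb1, -1.91 and -1.94 for Epha7 and -0.96 and -1.03 for Sema6d. Without an Isl1_KO library, where the lone Isl1_KO sample is assumed to vary like the control pair, 37 of 58 (63.8%, without replicate 1) and 31 of 57 (54.4%, without replicate 2) guidance genes passed in edgeR, beside 49.4% and 32.7% of all genes tested in the same fits.

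The start regions of the 3 called genes are shown because the genes moved in the same direction and Isl1 is a homeodomain factor, a class that commonly recognises a TAAT core. The 250 bases before each RefSeq start are printed 5′ to 3′ on the gene's strand, from build GRCm38.p6, with TAAT or its reverse complement ATTA in capitals. The windows are chr4:28812881-28813130 (plus strand) for Epha7, chr9:102354694-102354943 (minus strand) for Ephb1, and chr2:124089719-124089968 and chr2:124653331-124653580 (plus strand) for the first and second start of Sema6d.
Epha7: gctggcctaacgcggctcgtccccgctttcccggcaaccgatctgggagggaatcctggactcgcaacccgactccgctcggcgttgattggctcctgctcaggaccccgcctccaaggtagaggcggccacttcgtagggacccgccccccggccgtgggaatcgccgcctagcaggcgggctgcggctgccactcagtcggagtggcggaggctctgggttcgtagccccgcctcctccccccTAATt
Ephb1: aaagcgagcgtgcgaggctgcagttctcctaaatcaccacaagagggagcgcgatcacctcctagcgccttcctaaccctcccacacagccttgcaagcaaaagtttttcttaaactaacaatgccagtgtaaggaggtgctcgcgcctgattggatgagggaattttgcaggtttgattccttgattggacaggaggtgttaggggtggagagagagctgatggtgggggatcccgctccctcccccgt
Sema6d first start: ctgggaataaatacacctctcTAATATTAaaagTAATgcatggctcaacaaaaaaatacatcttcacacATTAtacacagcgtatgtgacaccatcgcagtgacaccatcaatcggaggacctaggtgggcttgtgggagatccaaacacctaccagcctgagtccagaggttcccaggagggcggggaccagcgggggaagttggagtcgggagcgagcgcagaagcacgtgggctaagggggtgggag
Sema6d second start: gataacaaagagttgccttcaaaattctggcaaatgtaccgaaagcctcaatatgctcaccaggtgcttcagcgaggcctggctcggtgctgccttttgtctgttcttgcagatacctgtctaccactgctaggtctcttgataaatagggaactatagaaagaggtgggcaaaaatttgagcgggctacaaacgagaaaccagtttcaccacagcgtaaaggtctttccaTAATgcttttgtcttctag

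The Epha7 window held 1 such core, the Ephb1 window 0, and the Sema6d windows 4 and 1. A second Epha7 start overlapped the first and its window held 2. Of all 32851 RefSeq start windows of this length, 54.9% held at least 1 TAAT or ATTA. Counted by gene, 22 of the 58 guidance genes with a window held 1 (37.9%), against 58.5% of all genes. The match describes letters only. With a core this common, its presence or absence cannot show whether Isl1 acts on a gene. The study mapped Isl1 binding by ChIP-Seq, which was not used here, so binding at these genes was not tested.

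Beyond the 3 calls, the study's own criteria were applied, which ask for a change of more than 0.58 in either direction on the log2 scale, or 1.5-fold, and a DESeq2 p below 0.05 before adjustment. In this test 10 guidance genes differed, 7 ligands (Sema5b, Sema6d, Slit2, Ntn1, Efna1, Efna5 and Efnb3) and 3 receptors (Robo2, Epha7 and Ephb1). All 10 were lower in Isl1_KO. They were 14.7% of the 68 genes, whereas 5.89% of all 16855 genes with a count met the criteria, 4.57% lower and 1.32% higher. In 5 of the 10 genes (Epha7, Ephb1, Robo2, Sema5b and Sema6d) the criteria were met whichever library was left out. Without Isl1_KO replicate 2, Efna5, Efnb3, Ntn1 and Slit2 no longer met them, and 10 genes did. Without control replicate 1, Efna1 and Ntn1 were lost (8 genes met them), without control replicate 2 Efna1, Efna5 and Ntn1 were (7 genes), and without Isl1_KO replicate 1 none of the 10 was lost (14 genes).

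**Figure D2:**
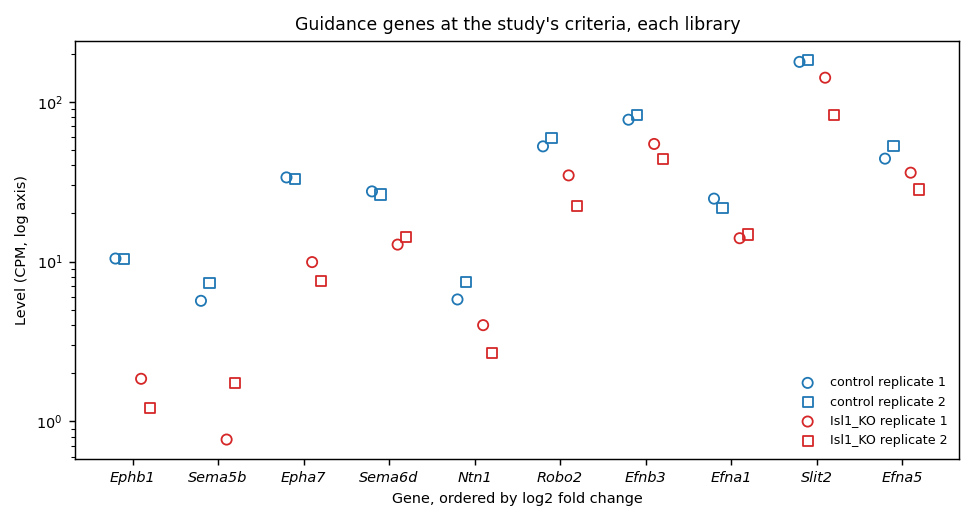
Level in CPM (log axis) of the 10 guidance genes at the study's criteria in each library, with circles for replicate 1 and squares for replicate 2, control in blue and Isl1_KO in red. In every gene both Isl1_KO points lie below both control points, by the widest margin in Ephb1, and for Slit2 and Robo2 the square of Isl1_KO replicate 2 lies well below the circle of replicate 1.

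Semaphorins, as ligands, did not share a direction. Sema5b, a transmembrane semaphorin with thrombospondin repeats, was at 5.68 and 7.33 CPM in control and at 0.769 and 1.74 CPM in Isl1_KO. It had only 10 and 20 counts in the Isl1_KO libraries, and with a log2 fold change of -2.39 (SE 0.403) it missed the threshold over all genes (edgeR adjusted p 0.0596), while DESeq2 gave it an adjusted p of 0.00191. Its relative Sema5a was at 94.1 and 98.9 CPM in control and at 106 and 132 CPM in Isl1_KO (log2 fold change 0.30, SE 0.120, edgeR adjusted p 0.218). The 2 family members therefore had log2 fold changes of opposite sign, and only that of Sema5b met the study's criteria.

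The secreted class 3 semaphorins, whose members repel or guide endothelial and neural crest cells, had a median log2 fold change of 0.11 over the 6 tested genes. In classes 4 to 7 the median was -0.39 over 11 tested genes, 9 of them below 0. Sema3e, the ligand of plexin-D1, was at 22.8 and 26.7 CPM in control and at 39.1 and 33.4 CPM in Isl1_KO. Both Isl1_KO libraries lay above control, with a log2 fold change estimated at 0.55 (SE 0.139, edgeR adjusted p 0.110), just under the study's fold. Sema3d was also above control in both libraries, at 3.15 and 4.17 CPM against 2.27 and 2.19 CPM (log2 fold change 0.71, SE 0.276, edgeR adjusted p 0.213). These were the 2 guidance genes with a higher level at an unadjusted p under 0.05. The most abundant semaphorins per transcript length were Sema4c, Sema3f and Sema5a, with mean RPKM (counts scaled to both transcript length and library size) of 13.3, 10.9 and 5.70 over the 4 libraries. Sema4c had a log2 fold change of -0.21 (95% interval -0.60 to 0.18) and Sema3f of 0.20 (95% interval -0.11 to 0.52). The other tested semaphorins (Sema3a, Sema3b, Sema3c, Sema4b, Sema4d, Sema4g, Sema6a, Sema6b, Sema6c and Sema7a) had mean RPKM from 0.243 to 2.80 and log2 fold changes from -0.65 to 0.21, and none passed. Counts of Sema3g were 1 and 4 for control and 1 and 0 for Isl1_KO, those of Sema4f 3 and 5 against 2 and 0, and Sema4a had at most 23, so these 3 did not enter the test.

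On the receptor side, the neuropilins had a summed RPKM of 88.8 and 86.8 in control and 76.9 and 69.2 in Isl1_KO, the highest of the families in every library except Isl1_KO replicate 2, where Unc5 and Dcc were higher. Nrp1, a co-receptor for class 3 semaphorins and for VEGF, had the highest RPKM of all 68 genes, at 60.2 and 59.7 in control and 54.2 and 51.2 in Isl1_KO. Its log2 fold change was -0.21 (95% interval -0.40 to -0.018, edgeR adjusted p 0.190). Nrp2 was at 28.6 and 27.1 RPKM in control and at 22.7 and 18.0 RPKM in Isl1_KO, that is -0.47 on the log2 scale (SE 0.138, edgeR adjusted p 0.138). In both genes the Isl1_KO libraries lay below control, and neither passed over all genes.

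Plexins transmit the semaphorin signal. Of 8 tested plexins, 0 passed the test and 1 was below an unadjusted p of 0.05, Plxna4, at 48.8 and 52.0 CPM in control and 28.6 and 40.3 CPM in Isl1_KO (log2 fold change -0.55, SE 0.178, edgeR adjusted p 0.162). Plxnb2, the most abundant plexin at a mean RPKM of 21.6, had a log2 fold change of -0.0092 (95% interval -0.17 to 0.15). Plxnd1, the receptor of Sema3e, had -0.026 (95% interval -0.47 to 0.42), with 154 and 161 CPM in control and 183 and 127 CPM in Isl1_KO, where the replicates lay on either side of control. Plxna2, Plxna3, Plxnb1 and Plxnc1 had log2 fold changes from -0.41 to 0.18, and none passed. Plxnb3 had no count in control and 4 and 1 counts in Isl1_KO, too few for a comparison.

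**Figure D3:**
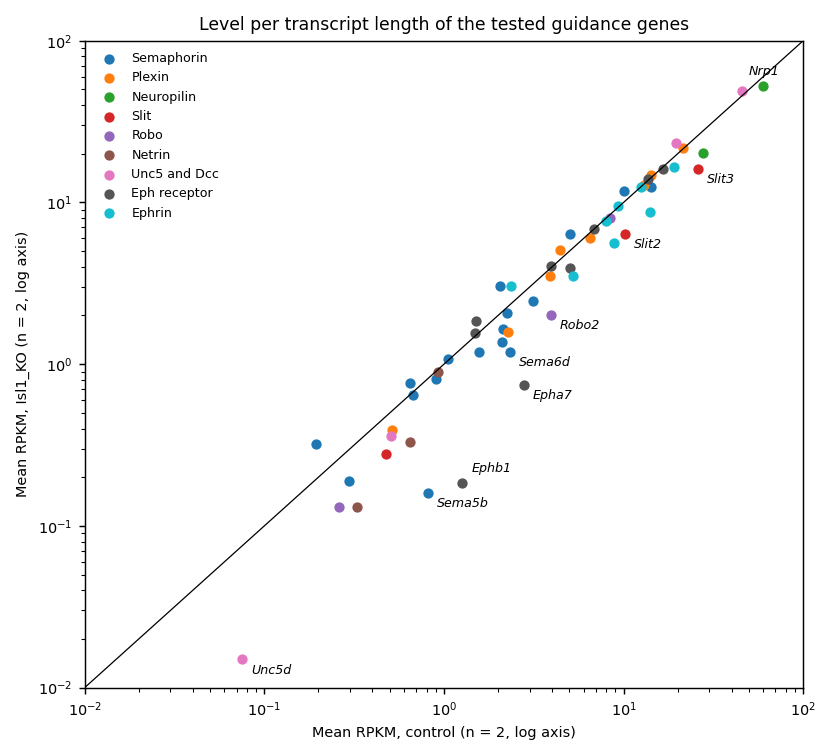
Mean RPKM in control (x axis) and Isl1_KO (y axis), both log axes and n = 2, of the 57 tested guidance genes, coloured by family, with the line of equal level. Nrp1 is the most abundant and lies near the line, while Ephb1, Epha7, Sema5b and Unc5d lie farthest below it.

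Slit ligands and Robo receptors all had both Isl1_KO libraries below both control libraries, and edgeR called none of the 6, while DESeq2 called Robo2. Of all tested genes 28.9% showed this order, and for Robo1 the log2 fold change was only -0.10 (95% interval -0.28 to 0.077). In Slit2, Slit3, Robo2 and Robo3 the level in Isl1_KO replicate 2 was the lower, whereas in Slit1 and Robo1 replicate 1 was. Slit3 was at 228 and 231 CPM in control and at 186 and 94.5 CPM in Isl1_KO, and Slit2 at 178 and 183 CPM against 141 and 82.9 CPM. For both ligands replicate 2 of Isl1_KO was the lower. On the log2 scale the differences were -0.71 (SE 0.305, edgeR adjusted p 0.244) for Slit3 and -0.68 (SE 0.245, edgeR adjusted p 0.189) for Slit2. Without Isl1_KO replicate 2 these values were -0.30 and -0.35, and without replicate 1 they were -1.28 and -1.12. Slit1 was much scarcer, at 5.34 and 3.39 CPM in control and 2.54 and 2.60 CPM in Isl1_KO (log2 fold change -0.76, SE 0.304, edgeR adjusted p 0.220). The collagen gene Col3a1, a mesenchymal marker, was likewise lower in Isl1_KO replicate 2 than in replicate 1, at 684 and 649 CPM in control and 429 and 55.4 CPM in Isl1_KO, as was the summed fibroblast list given above, and their part in the Slit values was not tested.

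Robo2, a Slit receptor, was at 52.6 and 59.3 CPM in control and at 34.6 and 22.2 CPM in Isl1_KO. The fitted difference was -0.97 on the log2 scale (SE 0.220, edgeR adjusted p 0.0921; -0.69 without Isl1_KO replicate 2 and -1.33 without replicate 1), and DESeq2 gave an adjusted p of 0.00334. Its neighbour on chromosome 16, Robo1 (72663394 to 73046340), was the more abundant per length, with a mean RPKM of 8.17 against 2.98. Robo1 had a log2 fold change of -0.10 (95% interval -0.28 to 0.077), an interval that does not overlap that of Robo2 (-1.53 to -0.41). Robo2 was singled out by its difference in the same counts, so this is not a further test. Robo3 had between 9 and 20 counts in a library (log2 fold change -1.04, SE 0.367, edgeR adjusted p 0.186).

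Netrins were the least abundant family, with a summed RPKM of 1.99 and 1.95 in control and 1.36 and 1.35 in Isl1_KO. Ntn1, the best studied netrin, had a mean of 6.62 ± 1.17 CPM in control, from 51 and 68 counts, and of 3.34 ± 0.925 CPM in Isl1_KO, from 52 and 31 counts (SD, n = 2 each), that is -0.98 on the log2 scale (SE 0.283, edgeR adjusted p 0.137), and it met the study's criteria. Ntn4, a netrin of basement membranes, had at most 16 counts in any library (log2 fold change -1.38, SE 0.490, edgeR adjusted p 0.188). Counts of Ntn5 were 3 and 1 for control and 0 in both Isl1_KO libraries. Ntn3, the most abundant netrin at a mean RPKM of 0.910, had -0.072 (SE 0.167), and an exon of Ntn3 overlaps Tbc1d24, with which it may share reads. Dcc, the attractive netrin receptor, had 2 counts in control replicate 1 and 0 in the other libraries, which allows levels of up to 0.328 CPM in control replicate 2 and 0.228 and 0.263 CPM in Isl1_KO.

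The repulsive netrin receptors were by contrast abundant. Unc5b was at 45.4 and 46.2 RPKM in control and at 51.0 and 47.1 RPKM in Isl1_KO, the second highest of all 68 genes, and Unc5c was at 18.9 and 20.4 RPKM in control and at 20.4 and 26.0 RPKM in Isl1_KO. Their log2 fold changes were 0.076 (95% interval -0.13 to 0.28) and 0.21 (95% interval -0.082 to 0.50), and neither passed the test. Unc5a had between 12 and 52 counts, and its log2 fold change of -0.45 (SE 0.604) was -1.74 without Isl1_KO replicate 1 (edgeR adjusted p 1.93e-04) and 0.19 without replicate 2. Counts of Unc5d were 11 and 11 for control and 1 and 5 for Isl1_KO (log2 fold change -2.27, SE 0.673, edgeR adjusted p 0.143). The summed RPKM of Unc5 and Dcc, 65.0 and 67.1 in control and 72.0 and 73.3 in Isl1_KO, was the only family sum that was higher in both Isl1_KO libraries than in both control libraries.

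**Figure D4:**
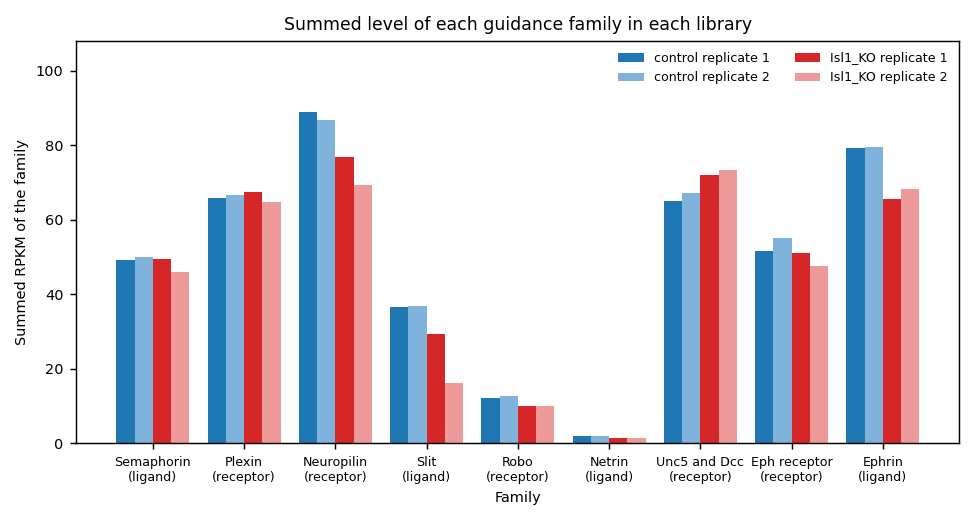
Summed RPKM of the members of each family (y axis, from 0) in each of the 4 libraries. Slit, Robo, netrin, neuropilin, Eph receptor and ephrin sums are lower in both Isl1_KO libraries than in control, the Unc5 and Dcc sum is higher, and the Slit sum of Isl1_KO replicate 2, 16.3, is well below the 29.3 of replicate 1.

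None of the other tested Eph receptors passed the test. Ephb4, the venous receptor of ephrin-B2, Epha4 and Ephb3 were the most abundant Eph receptors, with mean RPKM of 16.4, 13.8 and 6.85. Their log2 fold changes were -0.054, -0.0021 and -0.038, with 95% intervals of -0.28 to 0.17, -0.28 to 0.27 and -0.38 to 0.31. Ephb2 was at 93.9 and 101 CPM in control and 80.9 and 68.4 CPM in Isl1_KO (log2 fold change -0.38, SE 0.104, edgeR adjusted p 0.125). The intervals of Ephb1 (-3.39 to -2.10) and Epha7 (-2.33 to -1.51) overlap none of these. Both genes were singled out by their difference in this same fit, so the separation is not a further test. Ephb6, Epha1 and Epha2 had log2 fold changes from 0.015 to 0.26. The summed RPKM of the family was 51.6 and 55.2 in control and 51.0 and 47.7 in Isl1_KO. Counts of Epha3 were 9 and 3 for control and 0 and 2 for Isl1_KO, Epha10 had 0 and 4 against 4 and 2, and Epha6 had none in control and 1 in each Isl1_KO library. These genes, and Epha5 and Epha8 with at most 4 counts, were not tested.

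Among the ephrins, which are ligands bound to the membrane of neighbouring cells, Efnb3, Efna1 and Efna5 met the study's criteria. Efnb3 was at 77.2 and 82.5 CPM in control and 54.4 and 44.0 CPM in Isl1_KO (log2 fold change -0.70, SE 0.122, edgeR adjusted p 0.0626). Efna1 was at 24.8 and 21.7 CPM in control and 14.0 and 14.8 CPM in Isl1_KO (log2 fold change -0.69, SE 0.131, edgeR adjusted p 0.0708). Efna5, at 44.0 and 53.0 CPM in control and 36.0 and 28.2 CPM in Isl1_KO, had -0.59 (SE 0.162, edgeR adjusted p 0.126). In each of the 3 genes both Isl1_KO libraries lay below both control libraries, and none passed over all genes in edgeR.

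Efna1, Efna3 and Efna4 are neighbours on chromosome 3 (89075655 to 89141950). Efna4, at 28.4 and 24.1 CPM in control and 26.7 and 25.8 CPM in Isl1_KO, had a log2 fold change of 0.0005 (95% interval -0.31 to 0.32), and Efna3 had 0.32 (95% interval -0.47 to 1.10). The arterial ligand Efnb2 was at 98.3 and 93.6 CPM in control and at 66.9 and 118 CPM in Isl1_KO. Its Isl1_KO replicates therefore lay on either side of control, and its log2 fold change of -0.052 (95% interval -0.72 to 0.62) is a mean of opposite values, -0.52 without replicate 2 and 0.30 without replicate 1. Efna2 had -0.083 (95% interval -0.36 to 0.20). Efnb1 had the highest mean RPKM of the family, 17.8, and a log2 fold change of -0.23 (95% interval -0.62 to 0.15).

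By role, ligands had a median log2 fold change of -0.23 over 31 tested genes and receptors of -0.12 over 26, and over all 57 genes the median was -0.19, beside -0.0025 over all tested genes. Of the 57 genes, 28 (49.1%) had both Isl1_KO libraries below both control libraries, 7 (12.3%) had both above and 22 overlapped. Among all tested genes these shares were 28.9% below and 29.1% above. The median against the control mean was -0.16 in Isl1_KO replicate 1 and -0.28 in replicate 2, on the log2(CPM + 0.5) scale. Over the 57 genes the Isl1_KO libraries differed from each other by a median of 0.30 on this scale, against 0.18 over all tested genes.

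**Figure D5:**
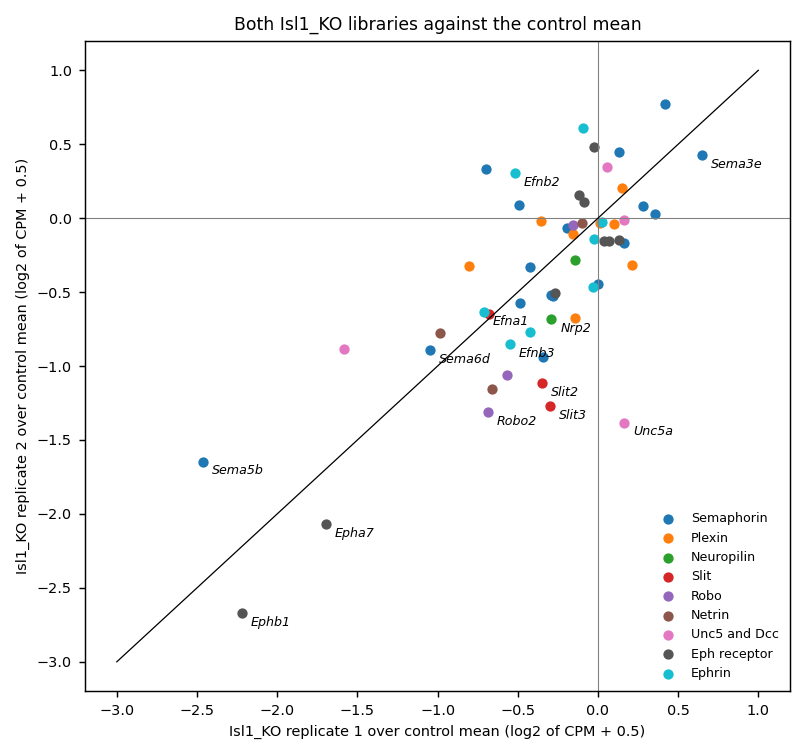
log2 ratio of each Isl1_KO library to the control mean, on the log2(CPM + 0.5) scale, replicate 1 on the x axis and replicate 2 on the y axis, for the 57 tested guidance genes by family. Ephb1, Epha7, Sema6d and Sema5b are low in both libraries, Slit2, Slit3 and Robo2 lie below the line of equal ratio, and Efnb2 is below 0 in replicate 1 and above 0 in replicate 2.

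Other genes of these pathways were taken from a list of 68 co-receptors, further cues and signalling proteins next to the receptors, of which 64 were tested. Only Neo1 passed, and it was lower. Neo1 encodes neogenin, a relative of Dcc that binds netrins and repulsive guidance molecules, and its mean was 178 ± 1.36 CPM in control libraries and 106 ± 9.12 CPM in knockout libraries (SD, n = 2 each; log2 fold change -0.75, SE 0.0819, edgeR adjusted p 0.0213). This was 1.56% of the tested list, below the 2.45% of all tested genes, and Neo1 was not called when either control replicate was left out (edgeR adjusted p 0.336 and 0.319). At the study's criteria 4 genes of the list were lower (Neo1, Ntng1, Crmp1 and Dpysl3) and 1 was higher, the adhesion molecule gene L1cam. These 5 were 7.35% of the 68, beside 5.89% of all genes with a count. L1cam was at 8.63 and 8.54 CPM in control and 10.8 and 27.7 CPM in Isl1_KO (log2 fold change 1.16, SE 0.467, edgeR adjusted p 0.222). Dpysl3, a collapsin response mediator protein that acts downstream of semaphorins, was at 144 and 142 CPM in control and at 67.1 and 31.3 CPM in Isl1_KO (log2 fold change -1.53, SE 0.336, edgeR adjusted p 0.0884). The median over the list was -0.13, with 44 genes below 0 and 20 above.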

How the data were processed

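Sorted CPCs of 2 control and 2 Isl1_KO clones were sequenced from poly(A) RNA with a stranded kit. The authors mapped reads to mm9 with STAR and counted reads in exons with HOMER, for each RefSeq transcript and without regard to strand; versions are not given in the sources used here. The deposited counts are raw reads per transcript, so antisense neighbours and transcripts of a gene can share reads. The deposited RPKM values, made by the authors with edgeR, were used only to compare levels between genes. The table's fold change and p-value columns come from the authors' DESeq2 test and were not used, and 0 per-sample columns were unmatched.

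Each of 20701 symbols was represented by its entry of highest summed count. Groups were compared in R 4.3.3 with edgeR 4.0.16, using TMM factors, filterByExpr and two-sided quasi-likelihood F tests without covariates. The p-values of 12715 genes were adjusted by Benjamini-Hochberg. DESeq2 1.42.0 gave the study's criteria. The main edgeR fit, the edgeR fit with the length offset and the DESeq2 fit were tested on simulated data. The other alternatives were not. CPM used effective library sizes, SDs are of 2 libraries, and p-values rest on the spread within each pair of libraries. A single-gene exact test cannot go below 0.333 here. Floors (3 counts, at most 0.340 CPM) cover counting error only. Positions are GENCODE vM1 on NCBIM37, the assembly of mm9. An exon of 5 guidance genes (Ntn3, Ntn5, Unc5a, Epha1, Ephb4) overlaps another coding gene. RefSeq start windows matched 58 of the 68 genes.

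Named by rule were Isl1, guidance genes past either test, the 3 of highest RPKM per family and side, guidance genes with 0 counts in a library, and mediators past the edgeR test. Other genes named were chosen after their values were seen. The members and lists were chosen with earlier results of these data known. Alternatives are listed in the closing section. Figures used Python 3.11.15, pandas 2.3.3 and matplotlib 3.10.9.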

Additional observations from a re-analysis of the deposited data

How the results depend on the processing

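The guidance genes called in edgeR, 3, were 6 with DESeq2, 5 without a filter and 5 with the replicate block, with all 3 main calls among them and Sema5b and Efnb3 added in each of these; with the length offset and block together 4 were called. The other settings gave 2 or 3. Leaving out one library gave 0 to 37. Over all genes, the 312 calls were 604 with DESeq2, 492 without a filter and 92 against a 1.5-fold change, and 28 to 6355 when one library was left out; such a fit takes its spread from the remaining pair. The mediators called, 1, were 2 with the replicate block, 2 with the length offset and block, and 0 against a 1.5-fold change, with 0 to 35 when one library was left out. The guidance genes at the study's criteria, 10, were 6 at an adjusted p, 9 with the replicate block and 15 in edgeR (14 lower, 1 higher), and 7 to 14 when one library was left out.

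The log2 fold change of Isl1 stayed past the threshold in all settings, from -4.75 to -4.08 without one library and -4.39 with the replicate block. The median of the guidance genes relative to all genes, -0.19, was -0.20 with the block, -0.15 with the length offset, and from -0.23 to -0.15 without one library. Deviations from the group means were nearly uncorrelated between libraries of one number (Pearson r 0.0145 over 12715 genes), and the samples share only a number.

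For single genes, direction reversed with a call for Efnb2 (0.30 without Isl1_KO replicate 1, -0.52 without replicate 2), Epha4 (0.13 without Isl1_KO replicate 2, -0.15 without replicate 1) and Plxnd1 (0.21 without Isl1_KO replicate 2, -0.31 without replicate 1); the cause was not tested. Of 426 single-gene results, 368 stayed on their side of the threshold and 48 newly passed, most of them without an Isl1_KO library. Besides the reversals above, 24 had the opposite sign to the reported value without a call. The 10 that were lost concerned Ephb1, Epha7, Sema6d and Neo1, 8 without a control library and 2 against a 1.5-fold change. Counts under about 25 a library, as for Sema5b in Isl1_KO, Unc5d and Ntn4, limit the precision.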
